A study of Mus musculus with 12 samples.

Results

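Sham-only regions are stretches of open chromatin that were found in the livers of Sham mice and in neither other group of the study. They were chosen by the peak lists themselves: the 3 lists of accessible chromatin sites were merged, and a merged region was Sham-only where it overlapped a Sham peak by at least 1 bp and no Ctl or VSG peak. This left 10160 of the 59246 merged regions (17.1%), each made of a single Sham peak. The presence of a peak, its height and its length were thus used for the choice, and they are given below as a description without a test.

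FAIRE-seq (Formaldehyde-Assisted Isolation of Regulatory Elements) enriches DNA that formaldehyde does not hold on nucleosomes. All animals were male C57BL/6J wild-type mice. Sham and VSG mice received a high-fat diet with 60% of its kcal from fat from an age of 8 weeks, for 14 weeks before and 14 weeks after surgery, with a liquid diet on the first 4 days after it. In vertical sleeve gastrectomy (VSG), about 80% of the stomach was removed, whereas in the Sham procedure the stomach was only isolated and pressed with blunt forceps. Ctl mice were kept on standard chow for 28 weeks. FAIRE-seq and RNA-seq were each done on livers of 2 mice per group, and the paper states that both assays used the same livers. A comparison of Sham with Ctl mice therefore spans diet and sham surgery together, and a comparison of Sham with VSG mice spans the surgery on the same diet. Each FAIRE list combines its 2 mice, so no peak has a value per mouse and the depth behind the lists is unknown. The tissue label was met in the RNA: of the 16 hepatocyte marker genes, none with FPKM values was at 0 in all mice. Their summed FPKM was 22361 to 52389 per mouse, and whether each of the 16 had values was not counted. Markers of neutrophils ranged from 115 to 5327 in summed FPKM, with the highest sum in a Sham mouse, and those of Kupffer cells and macrophages from 87.8 to 440.

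Open chromatin away from genes' start sites is where most enhancers lie. Enhancers hold short motifs that are read by transcription factors: in hepatocytes mainly by C/EBP, forkhead (FOXA) and nuclear receptors such as HNF4A and the PPAR:RXR pair, and in many cells exposed to stress or growth signals by AP-1, a dimer of FOS and JUN proteins. Promoters that are active in all tissues are mostly GC-rich CpG islands, whereas promoters of inducible and tissue-specific genes often are not. CTCF, a protein with a long motif of its own, marks boundaries between chromatin domains.

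The following sequences are 300 bases at the centre of Sham-only regions, read from the plus strand of mm9 (NCBIM37). Capitals mark matches to the motifs searched, on either strand. The first 3 are the regions with the highest FAIRE signal among those within 1000 bp of a transcription start site (TSS). They lie over the start of the histone gene Hist1h2bp (chr13:21879026-21879472), 174 bp upstream of Gimap9 (chr6:48627107-48627336), a GTPase gene of immune cells, and 165 bp upstream of Slpi (chr2:164182408-164182705), which encodes a secreted inhibitor of leukocyte proteases. Only the third holds a match, to the C/EBP motif at bases 71 to 78.

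Hist1h2bp: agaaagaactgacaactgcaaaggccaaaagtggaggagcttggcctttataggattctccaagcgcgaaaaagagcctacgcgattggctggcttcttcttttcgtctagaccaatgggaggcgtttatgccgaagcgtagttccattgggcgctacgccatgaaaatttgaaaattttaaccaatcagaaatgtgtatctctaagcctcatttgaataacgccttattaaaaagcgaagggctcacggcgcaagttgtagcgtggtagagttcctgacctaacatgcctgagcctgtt
Gimap9: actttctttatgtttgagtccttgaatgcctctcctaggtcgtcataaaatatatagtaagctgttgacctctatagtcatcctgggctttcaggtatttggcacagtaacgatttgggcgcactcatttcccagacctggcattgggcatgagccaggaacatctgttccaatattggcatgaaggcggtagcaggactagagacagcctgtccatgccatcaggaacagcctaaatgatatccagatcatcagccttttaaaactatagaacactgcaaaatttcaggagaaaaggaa
Slpi: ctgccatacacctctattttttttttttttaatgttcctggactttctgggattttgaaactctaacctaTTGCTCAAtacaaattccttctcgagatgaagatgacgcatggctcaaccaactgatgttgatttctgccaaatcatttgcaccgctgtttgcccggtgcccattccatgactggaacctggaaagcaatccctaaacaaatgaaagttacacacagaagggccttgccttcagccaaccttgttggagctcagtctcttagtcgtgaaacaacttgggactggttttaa

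The next 3 have the highest signal of all Sham-only regions beyond 1000 bp of a TSS. One lies in an intron 79881 bp from the nearest start, that of Fam105b (chr15:27480191-27480567), and holds a DR1 motif at bases 88 to 100 that differs from its letters at 1 base. The second lies 90100 bp upstream of the microRNA gene Mir218-2 (chr11:35339798-35340218). It is one of the reversible sites described below and holds an AAGGTCA element, a C/EBP motif and a GC box. The third lies 2363 bp downstream of the start of the calcium channel gene Orai3 (chr7:134915692-134915950), in an intron, and holds an AP-1 motif at bases 178 to 184.

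Fam105b: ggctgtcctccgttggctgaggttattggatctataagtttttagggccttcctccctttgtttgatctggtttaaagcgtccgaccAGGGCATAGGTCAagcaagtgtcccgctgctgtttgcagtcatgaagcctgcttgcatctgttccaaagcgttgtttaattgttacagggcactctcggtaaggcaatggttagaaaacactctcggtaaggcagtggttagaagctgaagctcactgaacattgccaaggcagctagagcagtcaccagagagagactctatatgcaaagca
Mir218-2: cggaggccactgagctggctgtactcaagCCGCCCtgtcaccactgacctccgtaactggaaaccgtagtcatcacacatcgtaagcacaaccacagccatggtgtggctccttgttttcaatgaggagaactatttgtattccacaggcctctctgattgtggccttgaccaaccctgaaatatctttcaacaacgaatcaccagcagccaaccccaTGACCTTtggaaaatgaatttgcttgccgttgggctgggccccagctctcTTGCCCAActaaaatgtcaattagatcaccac
Orai3: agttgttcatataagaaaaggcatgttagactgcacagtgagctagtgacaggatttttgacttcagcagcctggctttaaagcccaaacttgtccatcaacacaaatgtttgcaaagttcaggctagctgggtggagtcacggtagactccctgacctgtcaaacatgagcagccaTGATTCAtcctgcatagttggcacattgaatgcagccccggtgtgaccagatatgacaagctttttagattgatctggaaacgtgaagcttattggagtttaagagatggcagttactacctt

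Fam105b also leads the Sham-only regions with a DR1, the direct repeat of AGGTCA bound by PPAR:RXR and HNF4A. The other 2 with the highest signal among those with one are shown next, and both also hold AP-1. The region in an intron 25029 bp downstream of the start of Rarres1 (chr3:67294009-67294416) holds a DR1 at bases 62 to 74 and an AP-1 motif at bases 211 to 217. The intergenic region 30652 bp downstream of the start of Socs1 (chr16:10754496-10754977), an inhibitor of cytokine signalling, holds a DR1 at bases 193 to 205 among 4 AP-1 motifs.

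Rarres1: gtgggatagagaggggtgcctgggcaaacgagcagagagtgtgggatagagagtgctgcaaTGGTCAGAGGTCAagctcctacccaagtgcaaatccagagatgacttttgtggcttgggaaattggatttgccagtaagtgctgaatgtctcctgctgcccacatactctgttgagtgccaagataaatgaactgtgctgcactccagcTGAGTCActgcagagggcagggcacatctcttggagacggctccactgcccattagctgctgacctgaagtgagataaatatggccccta
Socs1: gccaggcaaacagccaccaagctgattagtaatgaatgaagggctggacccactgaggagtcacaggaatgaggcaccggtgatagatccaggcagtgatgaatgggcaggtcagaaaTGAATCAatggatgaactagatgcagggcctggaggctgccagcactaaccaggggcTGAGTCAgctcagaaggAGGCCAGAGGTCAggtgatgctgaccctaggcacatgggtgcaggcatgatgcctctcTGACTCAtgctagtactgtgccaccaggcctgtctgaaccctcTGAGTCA

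Sham-only regions were weak peaks. F-seq signal is the height the peak caller gives a peak, and it ranged from 0.193 to 0.738 with a median of 0.241, against a median of 0.561 for Sham peaks in regions found in all 3 groups. Only 523 of them (5.15%) were in the upper 50% of the Sham list, and 0 were in its highest decile. Of the 5289 Sham peaks in the lowest decile, 58.0% were Sham-only, and in each of the 2 highest deciles 0 of 5288 were. The lowest signal in the Sham list was 0.193, above the lowest in the Ctl list (0.137) and the VSG list (0.156), but signal was not compared between lists because its scaling is not known.

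**Figure D1:**
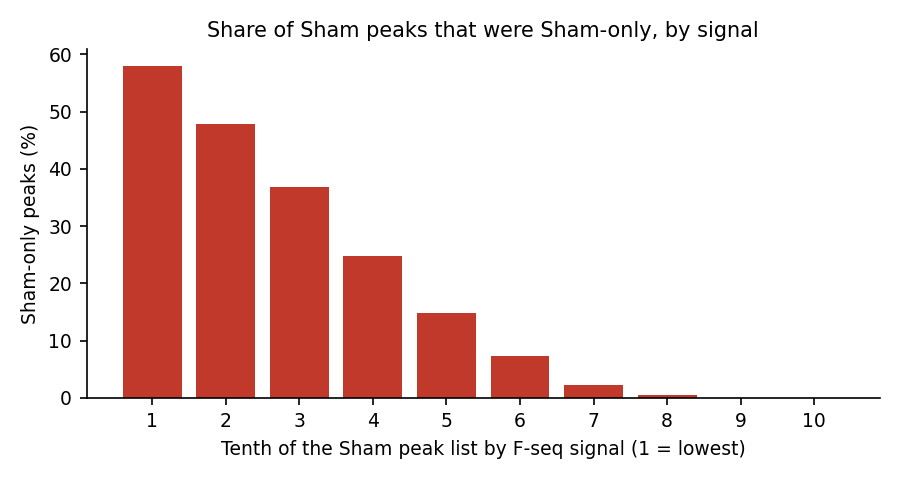
Share of Sham peaks that were Sham-only (vertical axis, %) in each decile of the Sham peak list by F-seq signal (horizontal axis, 1 is the lowest). The bars fall from 58.0% in the lowest decile to 24.8% in decile 4, 2.16% in decile 7 and 0 in deciles 9 and 10.

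The nearest Ctl or VSG peak was at a median distance of 5780 bp, with the middle 50% of regions between 1522 and 19320 bp. For 54 Sham-only regions it was within 50 bp and for 1188 (11.7%) within 500 bp. Just inside the rule, the region chr13:47266616-47267076 near Rnf144b had a Sham signal of 0.221 and the next other peak 1 bp away. Just outside it, the region chr4:141514165-141515003 near Gm13037 had a Sham signal of 0.194 and a Ctl signal of 0.203 with 6 bp of overlap. Since the Sham list was the longest, with 52881 peaks against 42204 in Ctl and 44539 in VSG, the regions were also formed from the 42204 strongest peaks of each list. The number of Sham-only regions was then 5033 of 52834, close to the 4819 found in Ctl only, against 2779 found in VSG only. With all peaks the last 2 numbers were 3149 and 2262.

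Sham-only regions lay away from gene starts. Only 754 (7.42%) were within 1000 bp of a TSS, against 27.8% of all merged regions, 27.2% of Ctl-only and 32.3% of VSG-only regions. Regions shared by Sham and VSG (9.62%) and by Ctl and Sham (12.0%) were near the Sham-only value. Another 4724 (46.5%) were in introns and 4096 (40.3%) were intergenic, against 33.9% and 31.3% of all merged regions, and 586 (5.77%) touched exons. The median distance to the nearest TSS was 16288 bp, against 7566 bp for all merged regions, and 2145 Sham-only regions were over 50 kb away. In the lower 50% of the Sham list, 7.45% of Sham-only regions were within 1000 bp of a TSS, against 11.5% of regions shared by Sham and VSG and 28.6% of regions found in all 3 groups. In the upper 50% the shares were 6.88%, 5.83% and 41.2%. Signal still differed between the classes within each 50%. Ctl-only regions formed from lists of equal length were within 1000 bp of a TSS in 24.4%, and Sham-only regions formed in the same way in 6.48%.

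**Figure D2:**
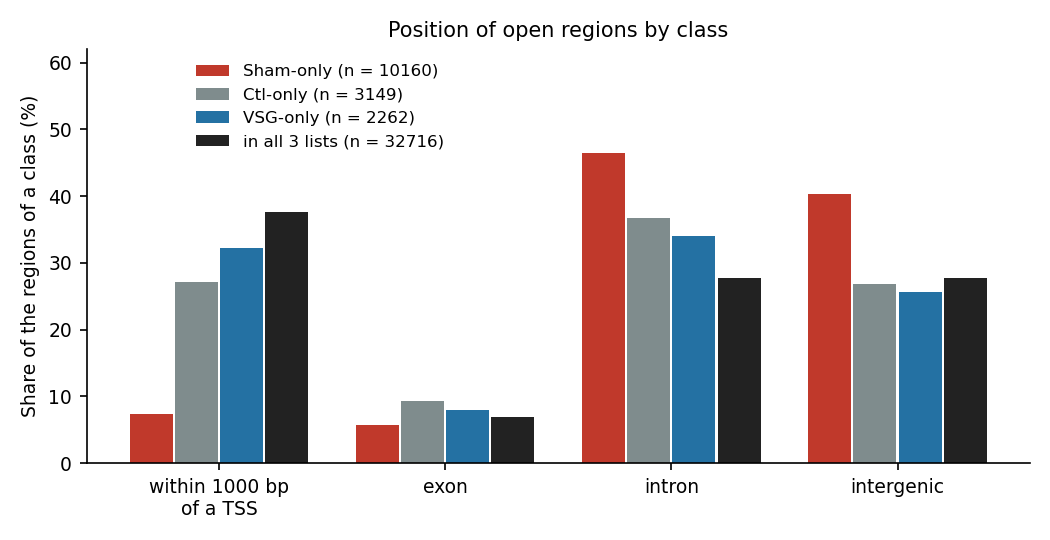
Share of regions (vertical axis, %) near a TSS (at most 1000 bp away), between genes and in introns or exons, for the Sham-only, Ctl-only and VSG-only regions and those in all 3 lists. Of the Sham-only regions 7.42% are near a TSS and 46.5% in introns, against 37.6% and 27.8% of the regions in all 3 lists.

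They were spread over all chromosomes. On the autosomes they made up between 14.1% of the merged regions (chromosome 11) and 20.8% (chromosomes 13 and 18), on chromosome X 20.2%, and on chromosome Y 1 of 34. The nearest neighbour of a Sham-only region was another Sham-only region in 2274 cases (22.4%), against 16.1% for all merged regions, and a region found in all 3 groups in 5164 (50.8%).

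The base composition differed in the same direction. Over 300 bases at the centre, the median GC content was 48.3%, against 52.3% for all merged regions, 53.7% for Ctl-only and 56.0% for VSG-only regions. Regions shared by Sham and VSG (49.3%) and by Ctl and Sham (50.3%) were closer to it. Only 59 Sham-only regions (0.581%) reached a GC content of 60%, against 27.3% of regions found in all 3 groups. Near gene starts the gap was larger. The 754 promoter regions had a median GC content of 49.0% and a ratio of observed to expected CpG of 0.297, against 62.3% and 0.749 for promoter regions found in all 3 groups. Only 90 of the 754 (11.9%) had a CpG ratio of at least 0.6, against 68.7% of the latter. Only 166 Sham-only promoter regions (22.0%) lay over the TSS itself, while 299 were upstream and 289 downstream of it. Of Ctl-only promoter regions 19.5% lay over the TSS, of VSG-only ones 40.1%, and of those found in all 3 groups, which were longer (median 689 against 250 bp), 78.3%.

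Motifs were counted as exact letters on both strands in the central 300 bases, with at most 1 mismatch for the motifs of 12 or more letters. AP-1 (TGANTCA) was present in 1606 Sham-only regions (15.8%) against 10.4% of all merged regions, 7.08% of Ctl-only and 7.78% of VSG-only regions. In regions shared by Sham and VSG it was present in 13.8%, and in those shared by Ctl and Sham in 10.5%. Beyond promoters and with a GC content of 45 to 55% it was present in 16.3% of Sham-only and 11.8% of other regions. With lists of equal length it was present in 16.8% of Sham-only, 7.78% of Ctl-only and 9.07% of VSG-only regions. The share was much the same by position, with 16.1% between genes, 15.7% in introns, 15.5% in exons and 113 of the 754 regions near gene starts. It was higher in the stronger regions: 25.4% of the 523 Sham-only regions in the upper 50% of the Sham list held AP-1, against 15.3% of the 9637 in the lower 50%. The same order held in the other classes with a Sham peak, with 17.5% and 12.0% for regions shared by Sham and VSG, 13.8% and 10.1% for those shared by Ctl and Sham, and 9.25% and 7.71% for those found in all 3 groups.

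Liver enhancer motifs were present too. C/EBP (TTGCNNAA) was present in 19.4% of Sham-only regions against 14.8% of all merged regions, forkhead (TGTTTAC) in 7.59% against 5.40%, and the nuclear receptor element AAGGTCA in 12.6% against 9.75%. DR1 (AGGTCANAGGTCA) was present in 309 Sham-only regions (3.04%) against 2.07% of all, and HNF4 (CAAAGTCCA) in 2.21% against 1.70%. Regions shared by Sham and VSG held them about as often, with C/EBP in 19.7%, forkhead in 7.78%, AAGGTCA in 13.7%, DR1 in 2.75% and HNF4 in 2.53%. Beyond promoters and with a GC content of 45 to 55% these shares drew closer, at 18.8% against 17.9% for C/EBP, 7.49% against 6.50% for forkhead and 3.11% against 2.66% for DR1. NF-kB (GGGANTTTCC), the factor of inflammatory signalling, was found in 70 Sham-only regions (0.689%) against 0.506% of all. It was in 0.752% of VSG-only regions and 0.723% of those shared by Sham and VSG. In Ctl-only regions and those found in all 3 groups it was in 0.349% and 0.431%. PU.1 (GAGGAAGT), a factor of macrophages, was in 2.50% of Sham-only regions against 2.49% of all. CTCF (CCACNAGGTGGCA) was in 3.21% against 3.09%, but beyond promoters and with a GC content of 45 to 55% in 2.76% of Sham-only against 4.38% of other regions. Motifs of CpG-rich promoters were rarer than in all merged regions: the GC box (GGGCGG) of SP1 was in 6.11% against 21.9%, ETS (CCGGAAGT) in 0.561% against 1.87%, and NRF1 (CGCATGCG) in 0.148% against 0.805%. Most of this gap was absent beyond promoters at a GC content of 45 to 55%. There the GC box was in 5.70% of Sham-only against 7.89% of other regions, ETS in 0.493% against 0.499%, and NRF1 in 0.155% against 0.202%. The DR1 letters overlap those of AAGGTCA, so 1 stretch of sequence can count for both.

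These motifs lay at the summit, the highest point of the Sham peak. Among the 9406 Sham-only regions beyond promoters, AP-1 matched within the 100 bases around the summit in 8.60%, against a mean of 3.15% per 100 bases farther out. In the 20421 regions found in all 3 groups the values were 5.68% and 3.03%. In Sham-only regions DR1 matched in 2.15% at the summit against 0.285% outside, HNF4 in 1.54% against 0.181%, and CTCF in 3.13% against 0.103%. C/EBP matched in 9.29% against 4.52% and forkhead in 3.75% against 1.64%. The letters of the STAT motif (TTCNNNGAA) showed no rise at the summit, at 3.14% against 3.35%. The rise was not particular to Sham-only regions. In regions found in all 3 groups DR1 matched in 1.84% against 0.289%, HNF4 in 1.64% against 0.158% and CTCF in 4.15% against 0.113%. In regions shared by Sham and VSG, AP-1 matched in 7.18% against 3.06% and DR1 in 2.15% against 0.300%. The mean GC content at the summit was 51.6%, against 55.4% in regions found in all 3 groups.

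**Figure D3:**
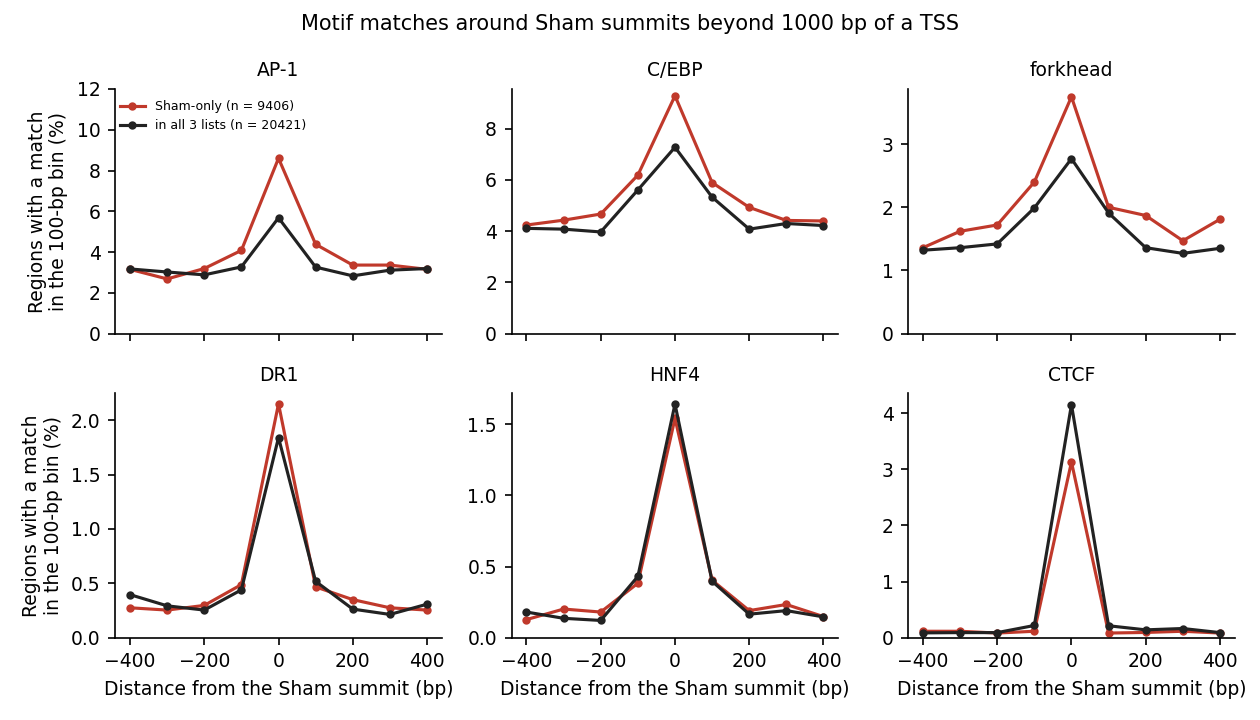
Share of regions with a motif match (vertical axes, %) in bins of 100 bp by distance from the Sham summit (horizontal axes), beyond 1000 bp of a TSS, for 9406 Sham-only regions (red) and 20421 regions in all 3 lists (black). All 6 motifs peak at the summit, AP-1 at 8.60% in Sham-only regions and 5.68% in regions of all 3 lists, and CTCF at 3.13% and 4.15%.

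**Figure D4:**
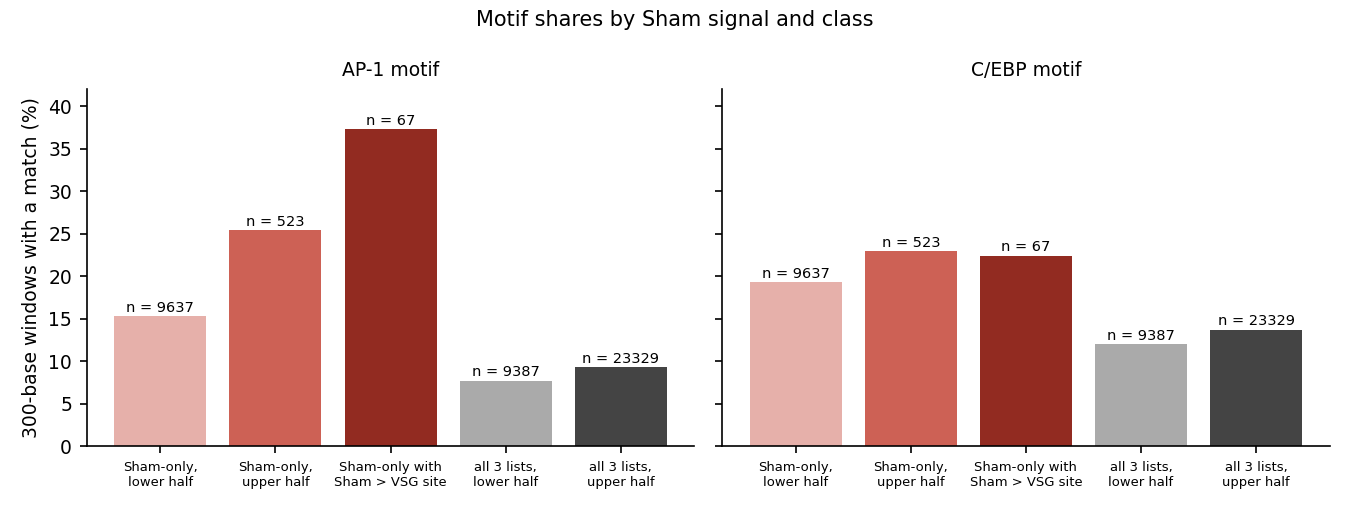
Share of 300-base windows (vertical axis, %) with an AP-1 match (left) or a C/EBP match (right), for Sham-only regions in the lower and upper 50% of the Sham list, for those with a site called higher in Sham against VSG, and for regions in all 3 lists in the lower and upper 50%. AP-1 goes from 15.3% to 25.4% and 37.3% across the Sham-only groups, and C/EBP from 19.3% to 22.9% and 22.4%.

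The study's own lists of variable sites, called by its authors from read counts of the same FAIRE libraries, are not independent of the peak lists, and their overlap is given as a description. Of the 99 sites where Sham mice had more accessible chromatin than VSG mice, 67 (67.7%) lay in a Sham-only region, 0.659% of these regions. Of the 61 reversible sites, those more accessible in Sham than in both Ctl and VSG mice, 49 (80.3%) did. Of the 414 sites where VSG mice had more than Sham mice, and of the 175 reversible sites with the opposite direction, 0 did.

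The 49 Sham-only regions with a reversible site had a median signal of 0.456 and lay at a median of 21964 bp from the nearest TSS, 23 between genes, 20 in introns, 5 in exons and 1 near a gene start (672 bp upstream of Lgsn). AP-1 was found in 19 of the 49 (38.8%), C/EBP in 11, the AAGGTCA element in 9, STAT in 7 and forkhead in 6. CTCF and HNF4 were found in 0, and DR1 in 2. AP-1 was in 29.3% of all 99 sites higher in Sham and in 3.86% of the 414 sites higher in VSG mice. This was not particular to AP-1: C/EBP was in 28.3% and 6.28%, STAT in 20.2% and 3.86% and forkhead in 11.1% and 1.93%. Among motifs that went the other way, the GC box was in 7.07% and 49.0%. Among the 49 regions, the strongest after the one near Mir218-2 was an intronic region 38689 bp upstream of Gm14092 (chr2:145419407-145419721, signal 0.689). It was followed by a region 1939 bp upstream of Igdcc4 (chr9:64946705-64947354, 0.684). The one shown above near Rarres1 (0.676) came next, followed by an exonic region 3570 bp upstream of the start of the peptidase gene Dpp7 (chr2:25215449-25215730, 0.674). Others were nearest to Tgfb2, a growth factor of fibrosis (chr1:188407884-188408196), the glycolytic regulator Pfkfb3 (chr2:11379543-11379934), the myeloid repressor Gfi1 (chr5:108134946-108135186) and the steroid hydroxylase Cyp2c70 (chr19:40293073-40293352). The regions near Prl7d1 and Gm1966 have 3 and 101 near-copies elsewhere in the genome, and the other 65 of the 67 regions named by the rules had none.

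Of the 10160 regions, 9183 had a TSS within 100 kb and were assigned to the nearest gene, 6024 genes in all. Of these genes 4116 had 1 Sham-only region, 1220 had 2 and 688 had 3 or more. The largest numbers were 13 at Ablim1, an actin-binding protein gene, of 33 merged regions assigned to it, and 11 at Sgms1, which makes sphingomyelin, of 29. Gm10309 had 10. Fam105b, Rasgef1b, Itpr1, Kalrn, Hsd17b2, Synj2 and Rnf144b had 9 each. Among these 10 genes the share of Sham-only regions was highest at Fam105b (9 of 15, 60.0%) and Hsd17b2, a steroid dehydrogenase gene (9 of 17, 52.9%), and lowest at the calcium channel gene Itpr1 (9 of 39, 23.1%).

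RNA values were not used by the rule, but the RNA came from the same livers as the peaks, so the 2 assays do not sample separate mice. An adjusted p from limma on log2(FPKM + 1) over 11511 transcripts was used, with a call at an FDR of 10%. FPKM is a read count per transcript length and depth, estimated with Cufflinks. A value of 0 in a transcript whose gene is otherwise expressed can be a failed estimate, and the Sham mice enter both comparisons. Over all transcripts, 0.347% were called between Sham and Ctl mice and 0.0782% between Sham and VSG mice. Transcripts of genes nearest to a Sham-only region numbered 3550, of which 10 (0.282%) and 2 (0.0563%) were called. Their median log2 difference was 0.01 from Ctl and -0.09 from VSG mice, against 0.02 and -0.09 over all transcripts. An unadjusted p under 0.05 was found for 12.0% and 5.44%, against 10.2% and 4.96% of all. For genes with 4 or more Sham-only regions, the medians over 236 transcripts were 0.00 and -0.02. Of these transcripts 0 passed in either comparison by limma, with 27 and 12 at an unadjusted p under 0.05.

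The transcripts called between Sham and Ctl mice included those of Kng1, Araf, Pdcd4, Krcc1 and Tat, which were lower in Sham mice, and of Il15ra, Asgr1, Tacc2 and Pold4, which were higher. They are named because they passed, after their values were seen. Of those named, all but Tat were listed at 0 in both mice of one of the groups compared. Tat, tyrosine aminotransferase of amino acid breakdown in hepatocytes, had 2 Sham-only regions assigned, 1 over an exon and 1 intergenic. Its FPKM was 1376 and 1477 in Ctl, 210 and 188 in Sham, and 233 and 283 in VSG mice. The Sham and Ctl values did not overlap, and the log2 difference was -2.84 ± 0.24 (SE, n = 2 against 2, adjusted p = 0.0419). This call and the others near the regions were all lost without either Ctl mouse, in fits with 0 calls over all transcripts. Against VSG mice the difference of Tat was -0.37 ± 0.24 (adjusted p = 0.937). The 2 transcripts called between Sham and VSG mice, Krcc1 and the microRNA precursor Mir1929, were both at 0 in Sham mice, and Mir1929 was at 0 in Ctl mice too.

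Genes with a region at their start were counted on their own. Of 546 transcripts with a Sham-only region within 1000 bp of a TSS of their gene, 1 was called against Ctl (0.183%) and 0 against VSG by limma, with 81 (14.8%) and 35 (6.41%) at an unadjusted p under 0.05. Their median log2 differences were 0.06 and -0.10. Over all transcripts tested, 0.347% and 0.0782% were called, 10.2% and 4.96% had an unadjusted p under 0.05 by limma, and the medians were 0.02 and -0.09. In 29 of the 546 (5.31%) both Sham mice were above all 4 other mice, against 5.23% of all transcripts tested, and in 48 (8.79%) both were below, against 8.35%. The 1 call was an isoform of Pdcd4 at 12.3 and 8.90 in Ctl mice and listed at 0 in the 4 others. It was lost without either Ctl mouse (adjusted p = 0.274 and 0.331), without Sham mouse 1 (0.122) and without either VSG mouse (0.134 and 0.136). Without Sham mouse 2 the calls among the 546 numbered 11 against Ctl and 6 against VSG, and among the 3550 they numbered 70 and 21, while 195 (1.69%) and 60 (0.521%) of all transcripts were called, in a fit where the lone Sham mouse is assumed to vary like the other groups.

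The promoter regions lay at genes of unlike expression. Of the 795 genes of the annotation with a Sham-only region within 1000 bp of a TSS, 520 also had a region of another class there, and 275 had none. Of the first, 467 had FPKM values, with a mean FPKM of at least 1 in 80.9% and a median of 5.56. Of the second, 205 had values, with 24.9% and a median of 0.211. For genes with a region found in all 3 groups the share was 72.7%, and for all genes of the annotation 41.3% with a median of 0.350. The median over the 205 genes was 0.116 and 0.142 in Sham, 0.114 and 0.132 in Ctl and 0.115 and 0.204 in VSG mice, so the groups overlapped.

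Among the 546 transcripts the 3 with the smallest p in each direction of each comparison are given here. None but Pdcd4 passed the correction. Slpi had an FPKM of 8.31 and 16.3 in Sham mice, 0.157 and 0.315 in Ctl mice and 2.36 and 0.741 in VSG mice. Both Sham mice were above the 4 others, with a log2 difference of 3.36 ± 0.49 from Ctl (SE, adjusted p = 0.140) and 2.39 from VSG (adjusted p = 0.536). Fcgr2b, the inhibitory Fc receptor of liver sinusoidal endothelium, had 2.53 and 2.98 in Sham, 8.12 and 6.89 in Ctl and 8.73 and 8.58 in VSG mice. Both Sham mice were below the 4 others, by 1.18 from Ctl (adjusted p = 0.228) and 1.36 from VSG mice (adjusted p = 0.386). Itm2b, a membrane protein gene, had 305 and 218 in Sham, 473 and 439 in Ctl and 555 and 583 in VSG mice, again with the Sham mice lowest. The summed endothelial markers, Fcgr2b among them, were also lowest in Sham mice, at 10.6 and 8.86 against 59.6 and 28.9 in Ctl and 34.2 and 43.4 in VSG mice, and their part in the value of Fcgr2b was not tested. Shb, an adaptor of tyrosine kinases, had 5.09 and 6.24 in Sham, 15.7 and 18.5 in Ctl and 7.65 and 8.22 in VSG mice. Metallothionein Mt1, a metal-binding protein, had 2826 and 3221 in Sham, 4506 and 5629 in Ctl and 870 and 555 in VSG mice, so Sham mice lay between the others. The remaining ones (isoforms of Pkig, Cyhr1, Bdh2, Dnm2 and Inca1) were listed at 0 in both mice of at least 1 group, and no fold is given for them.

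The genes nearest to the strongest regions varied. At Hist1h2bp the FPKM was 27.0 and 12.4 in Sham, 11.7 and 13.1 in Ctl and 24.2 and 11.3 in VSG mice, where near-identical histone genes may share reads. The sources differ on whether RNA was selected by its poly(A) tail or depleted of ribosomal RNA, which bears on the levels of histone, microRNA precursor and nuclear noncoding transcripts. Gimap9 had 5.22 and 6.54 in Sham, 9.12 and 7.50 in Ctl and 5.10 and 4.98 in VSG mice. Orai3 lay between 6.21 and 7.71 in all 6 mice, and Fam105b (now Otulin) between 22.1 and 32.6. Igdcc4 was barely present outside Sham mice, with 1.14 and 2.79 in Sham, 0.00586 and 0.00703 in Ctl and 0.216 and 0.0482 in VSG mice (log2 difference from VSG 1.34, adjusted p = 0.842, and adjusted p = 0.353 against Ctl). The longest Sham-only region, 1762 bp over an exon of the nuclear long noncoding RNA Neat1 (chr19:5823900-5825661), had a signal of 0.222. Neat1 had 186 and 232 in Sham, 18.8 and 28.0 in Ctl and 204 and 81.5 in VSG mice. It was above both Ctl mice in both Sham mice, with a log2 difference of 3.12 ± 0.50 (SE, adjusted p = 0.158), and overlapped with VSG. Cyp2c70 had 73.3 and 62.6 in Sham, 238 and 214 in Ctl and 86.4 and 54.9 in VSG mice (log2 difference from Ctl -1.72, adjusted p = 0.171).

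**Figure D5:**
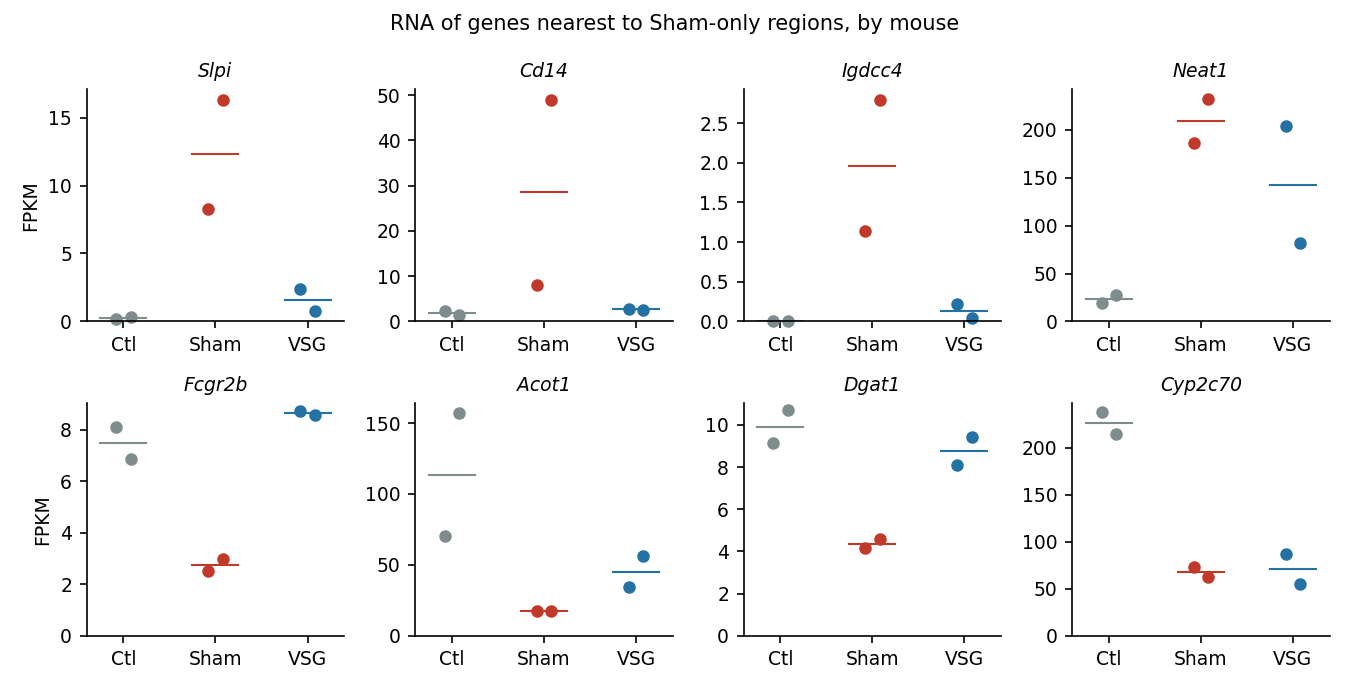
FPKM (vertical axes, linear, each from 0) of 8 genes nearest to or with a TSS near a Sham-only region, with 1 point per mouse and a line at the mean of the 2 mice of a group. Slpi, Cd14 and Igdcc4 have both Sham mice above all others, Fcgr2b, Acot1 and Dgat1 both below, and in Neat1 and Cyp2c70 the Sham mice overlap with VSG mice.

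Fixed lists of genes show where in liver biology these regions lay. A list gene counted where a Sham-only region was assigned to it, which was so for 31.5% of all genes with a tested transcript and 21.8% of the annotation, and no test of a list was run. Genes with more merged regions of any class can meet this more easily. The shares were not matched for the number of regions per gene, so a high share is not particular to Sham-only regions. Interleukin and NF-kB signalling had 16 of 24 genes (66.7%), with 37 regions, among them 6 of the 18 merged regions at the interleukin 1 receptor Il1r1, 6 of 10 at the inducible regulator Nfkbiz and 4 of 7 at the inhibitor Tnfaip3. Glucose and insulin signalling also had 16 of 24, with 6 of 25 at Pik3r1, a subunit of PI3-kinase, and 4 of 20 at Foxo3. Liver transcription factors had 19 of 31 (61.3%), with 6 of 15 at the bile acid receptor Nr1h4. The 5 of 34 at Rxra (14.7%) and 4 of 24 at Bcl6 (16.7%) were below the 17.1% over all merged regions. Fatty acid and triglyceride synthesis and bile acid synthesis and transport had 14 of 24 each, and acute phase proteins 15 of 26 (57.7%). PPAR targets had 13 of 35 (37.1%), and lipid droplet genes 3 of 18, with 4 of 11 regions at the lipid droplet coat gene Plin2. Of the cell type markers, those of hepatocytes had 9 of 16 genes, Kupffer cells and macrophages 8 of 20, cholangiocytes 3 of 9 and endothelium 4 of 13. Stellate cells had 1 of 15, neutrophils 1 of 13 and lymphocytes 0 of 14.

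RNA of these lists is given over all their tested transcripts, also those of genes without a Sham-only region. Acute phase proteins had the highest median of the pathway lists, 1.23 above Ctl and 1.45 above VSG mice on the log2 scale over 19 transcripts. Both Sham mice were above the 4 others in 7 of the 19, and 0 were called in either comparison. Over all transcripts tested, both Sham mice were above the 4 others in 5.23% and below them in 8.35%. Fatty acid and triglyceride synthesis had a median of -1.02 and -0.61 over 27 transcripts, with both Sham mice lowest in 6, and cytochrome P450 genes -0.69 and -0.65 over 39, with both lowest in 9. Hepatocyte markers had medians of -1.25 and -0.94 over 13, and their summed FPKM was 22361 in Sham mouse 2 against 42498 to 52389 in the 5 other mice, whose part in these medians was not tested. Interleukin and NF-kB signalling had medians of 0.13 and -0.02 over 21 transcripts. In bulk tissue, fewer cells of a type and less RNA per cell cannot be told apart. The summed neutrophil markers were 1976 and 5327 in Sham mice, 168 and 115 in Ctl and 2093 and 232 in VSG mice, and their part in these values was not tested.

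List genes with a Sham-only region within 1000 bp of a TSS came from many of the lists. A region of 444 bp and signal 0.209 lay over the start of Cd14, the co-receptor for lipopolysaccharide, whose FPKM was 8.13 and 49.0 in Sham, 2.25 and 1.31 in Ctl and 2.82 and 2.45 in VSG mice (log2 difference from Ctl 2.96, adjusted p = 0.387). The pentraxin gene Apcs, an acute phase protein, had a region over its start (chr1:174824938-174825417). Its FPKM was 1125 and 4400 in Sham, 76.9 and 88.8 in Ctl and 1316 and 293 in VSG mice (log2 difference from Ctl 4.73, adjusted p = 0.242). The macrophage lysosomal gene Cd68 (chr11:69479348-69480039) had 3.34 and 5.49 in Sham, 1.20 and 0.295 in Ctl and 3.56 and 8.46 in VSG mice. The summed Kupffer cell and macrophage markers, which include Cd14 and Cd68, were 370 and 346 in Sham, 104 and 87.8 in Ctl and 306 and 440 in VSG mice, and their part in these values was not tested. Regions also lay near the starts of Tlr4, the receptor for lipopolysaccharide, of the kinase Ikbkb, the chemokine Ccl9, the interferon regulator Irf1, Oas1a, Il1r1 and the fibrinogen chain Fga.

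The metabolic genes included albumin, the main plasma protein made by the liver. The region over the start of Alb (chr5:90889680-90890077), had a signal of 0.228, and no region of another class lay within 1000 bp of its TSS. Acot1, a thioesterase and PPAR target, had 17.1 and 17.2 in Sham, 70.4 and 157 in Ctl and 34.0 and 56.3 in VSG mice (log2 differences -2.55 and -1.30, adjusted p = 0.200 and 0.937). Dgat1, which makes the last bond of triglycerides, had 4.14 and 4.58 in Sham, 9.13 and 10.7 in Ctl and 8.08 and 9.45 in VSG mice (log2 differences -1.02 and -0.86, adjusted p = 0.286 and 0.766). Both Sham mice were lowest in both genes, as they were for the mitochondrial carrier Slc25a20 and for Igf1. The hormone Fgf21 had 21.1 and 116 in Sham, 4.54 and 7.75 in Ctl and 121 and 10.1 in VSG mice, with wide overlap. Nr1h4, with a region of signal 0.367 that starts 347 bp downstream of a TSS (chr10:88995692-88995983), had 52.9 and 48.5 in Sham, 45.7 and 48.7 in Ctl and 76.8 and 54.1 in VSG mice. Further list genes with such a region were Pparg, Srebf1, Stard4, Akr1c6, Cyp2a12 and Stat5b, the immediate early genes Klf6, Myc and Btg2, and Mki67, Egfr, Smad7 and Ctgf. No transcript of Alb, Fga, Tlr4, Stard4 or Mki67 was among those tested. A low value, a failed estimate and an identifier without a match were not told apart for these genes. No named transcript of the other list genes with a promoter region passed the correction in either comparison.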

How the data were processed

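FAIRE-seq and RNA-seq were done on livers of 2 mice in each of 3 groups. The deposited peak lists give position and F-seq signal, 1 list per group with both mice combined. The authors aligned FAIRE reads to mm9 with Bowtie, called peaks with F-seq and kept peaks by the irreproducible discovery rate. RNA reads were aligned with TopHat2, and the deposited FPKM values were estimated by Cufflinks per RefSeq transcript. An FPKM of 0 can be a failed estimate. The submitters' processing notes name Bowtie, CASAVA, Cufflinks, DESeq2, HTSeq, TopHat2 and bedtools, with versions not given in the sources used here. The authors' tables of fold changes and p-values were not used, and of their lists of variable sites only the positions were used. Depth is unknown for both assays, so no interval from read counts is given.

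Peaks were merged where they overlapped or touched. Regions were placed with the NCBIM37 annotation as promoter (a TSS at most 1000 bp away), exonic, intronic or intergenic, in this order, and assigned to the nearest TSS within 100 kb. Sequences were read from the NCBIM37 (mm9) genome. Letters of 20 motifs were searched on both strands in 300 central bases. Near-copies of named regions were sought with BLAST 2.17.0+ (90% identity over 80% of the length). Of 34933 transcript identifiers 31879 matched a gene of the annotation. The 11511 transcripts that reached an FPKM of 1 in 2 or more mice were tested on log2(FPKM + 1) in R 4.3.3 (limma 3.58.1) under a trended variance, all 3 groups in the fit, Benjamini-Hochberg adjustment and an FDR of 10%. Fold changes on this scale understate changes of low transcripts. Named regions were those with the highest signal among all regions, near a TSS and with a DR1 motif, the longest, and those with a reversible site. Named transcripts were the 3 with the smallest p in each direction of each comparison among those with a region near a TSS, those nearest to named regions, and list genes with a promoter region. The Sham-only regions, gene lists and motifs were chosen with earlier results of these data known. Other steps used Python 3.11.15 (pandas 2.3.3, scipy 1.17.1, numpy 2.4.6, matplotlib 3.10.9), and the fit was tested on simulated data. Alternatives were another number of peaks per list, minimum length, distance to other peaks, promoter window, motif window and mismatches, pseudocount, filter, sums per gene, centring, replicate block, 2 groups only and leaving out each mouse. Some genes that met the naming rules are not reported here. Labels do not say whether mice shared a litter or batch.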

Additional observations from a re-analysis of the deposited data

How the results depend on the processing

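With the same number of peaks per list there were 5033 Sham-only regions, of which 6.48% lay within 1000 bp of a TSS, with a median GC content of 48.0%. From the upper 50% of each list there were 5593, with a median GC content of 49.0%. The promoter share was 8.88% for peaks of at least 250 bp, 5.25% with no Ctl or VSG peak within 500 bp and 14.5% with a window of 2500 bp. The median GC content was 49.7% for peaks of at least 250 bp and 49.1% over whole regions. DR1 was in 2.60% of windows of 200 bases and in 0.413% with no mismatch.

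Calls among transcripts nearest to the regions are given against Ctl and VSG mice. With a pseudocount of 0.1 they numbered 16 and 4 (65 and 19 over all 11511 transcripts). They numbered 24 and 4 with no filter on low values (109 and 31 over all 22336). In fits of the 2 groups only they numbered 1 and 0 (7 and 0 over all 11511). For regions from equal lists they numbered 3 and 1, in the main fit with 40 and 9 over all. With FPKM summed per gene there were 3 and 2 (30 and 5 over all 9769). Of transcripts with a region near a TSS, 6 were called against Ctl with no filter, and 0 with sums per gene, 2 groups only or equal lists. Their median against VSG was -0.01 with no filter, 0.01 after centring each mouse on its median and -0.16 for equal lists. Centring also moved the median of all transcripts against VSG from -0.09 to 0.03.

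Leaving out 1 mouse gave 0 to 70 and 0 to 21 calls near the regions, and 0 to 11 and 0 to 6 at a TSS, each highest without Sham mouse 2. The medians at a TSS ranged from 0.00 to 0.12 against Ctl and from -0.15 to -0.02 against VSG. With the replicate block, 2 transcripts nearest to the regions were called against Ctl and 0 against VSG, and 0 at a TSS against Ctl (12 and 0 over all transcripts). The groups share replicate numbers 1 and 2 only, and the deviations of same-numbered mice correlated at 0.115 (Ctl and Sham), 0.115 (Sham and VSG) and 0.086 (Ctl and VSG) across transcripts, so the numbers were not taken to pair the mice. Of the transcripts named for the smallest p at a TSS, the Pdcd4 isoform lost its call and Cyhr1 gained one with a pseudocount of 0.1 (adjusted p = 0.0542, limma). The cause of these changes was not tested. With no depth for any list, a missing peak cannot be told apart from a site not detected.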

Other observations

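RNA of factors that read the AP-1, C/EBP, forkhead, DR1 and CTCF motifs was looked up after the motif shares were seen, and none of the transcripts tested passed the FDR of 10% in either comparison (limma), with an unadjusted p under 0.05 for Fosl2 against Ctl and Ppara against VSG mice. Fosb, Fosl1 and Cebpd were not tested. Of the AP-1 genes, Fos had an FPKM of 0.966 and 1.71 in Sham, 2.65 and 0.605 in Ctl and 71.6 and 2.72 in VSG mice. Jun had 7.06 and 13.9 in Sham, 13.0 and 18.2 in Ctl and 74.4 and 18.2 in VSG mice. The highest value of both genes was thus in the same VSG mouse, and neither was highest in Sham mice. Fosl2, with 2 Sham-only regions assigned, had 2.58 and 2.79 in Sham, 4.84 and 5.46 in Ctl and 1.49 and 2.26 in VSG mice (log2 difference from Ctl -0.74, adjusted p = 0.478). Cebpa had 120 and 114 in Sham, 103 and 109 in Ctl and 145 and 144 in VSG mice. The isoforms of Rxra and Hnf4a tested were listed at 0 in 1 Sham mouse and at 57.6 and 73.3 in the other.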
